A study of Rattus norvegicus with 4 samples.

Results

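The enzymes that write and erase DNA methylation were followed in rat embryonic stem cells (ESCs) with and without a targeted *Thop1* gene. The set was chosen with earlier results of these data known, and its 10 genes were taken by symbol. These are *Dnmt1*, *Dnmt3a*, *Dnmt3b* and *Dnmt3l* (DNA methyltransferase genes), *Uhrf1* and *Uhrf2*, *Tet1*, *Tet2* and *Tet3* (dioxygenase genes) and *Tdg* (a glycosylase gene). They are 10 of the 34773 genes in the deposited table, each symbol was found once, and all 10 were among the 15028 genes that passed the filter on low counts.

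RNA selected by its poly(A) tails was sequenced in 1 library of DA-5-3GFP, a diploid rat ESC line that carries a green fluorescent reporter in *Rex1* and served as the wild-type (WT) control. Another 3 libraries came from *Thop1*-KO subclones #1, #2 and #3 of the same reporter line, made with Cas9, so each is 1 clone. *Thop1* encodes thimet oligopeptidase, a peptidase. All cells carried the *Rex1* reporter and, following the study's general culture method, grew on feeder cells in 2i/LIF medium, which holds inhibitors of MEK and GSK3 and the cytokine LIF. The labels give the genotypes as WT and Thop1-KO, and the text deposited with them calls the cells haploid, whereas the study's methods name the line as its WT line beside a separate haploid line. Because the control was a single library, the spread between replicates came from the 3 subclones alone, and the genotype cannot be told apart from that one culture or library.

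Cytosine methylation in mammals is kept through cell division by DNMT1, which copies the mark onto newly made strands after UHRF1 has bound half-methylated sites. DNMT3A and DNMT3B place the mark on unmethylated DNA, with DNMT3L as a cofactor that has no catalytic activity of its own. The TET dioxygenases oxidise 5-methylcytosine, and TDG cuts out the most oxidised forms, which base excision repair then replaces by plain cytosine. Naive ESCs held in 2i medium are known for low DNA methylation.

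Counts on genes summed to between 15405499 and 17936544 per library. Counts scaled to a common library size (CPM) were obtained with edgeR's TMM method, and edgeR's quasi-likelihood test was used for *Thop1*-KO against the control, with p-values adjusted by Benjamini-Hochberg over all genes tested. A gene was called at an adjusted p under 0.05. Levels were compared between genes only in the deposited FPKM, which divides the count by gene length and by the size of the library. *Thop1*, the targeted gene, was at 370 CPM in the control and at 110, 92.5 and 149 CPM in #1, #2 and #3, which is at most 40.3% of the control. The ESC genes *Pou5f1*, at 4790 CPM in the control and 3890 to 4840 CPM in the subclones, and *Nanog*, at 468 CPM and 334 to 494 CPM, were high in every library. Of 11 ESC markers tested, 3 were called higher and 1 lower, beside 8.62% and 5.17% of all genes tested. Among them, *Esrrb* was at 15.9 CPM in the control and 286 to 330 CPM in the subclones. *Tfcp2l1* was at 34.5 CPM and 231 to 279 CPM, and *Utf1*, the lower one, at 1570 CPM and 405 to 626 CPM. *Zfp42*, the gene of the reporter, was not analysed here.

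Of the 10 genes, 5 were higher in *Thop1*-KO at the threshold: *Dnmt3a*, *Dnmt3b*, *Uhrf1*, *Tet2* and *Tet3*. None was lower. Against these 5 of 10 genes, 8.62% of all genes tested were called higher and 5.17% lower in the same fit. The control lay below all 3 subclones for 7 of the 10 genes, above all 3 for *Dnmt1* and *Dnmt3l*, and inside their range for *Uhrf2*, whereas over all genes tested it lay below in 38.1%, above in 37.6% and inside or level in 24.3%. The median log2 fold change was 0.99 over the 10 genes and 0.0555 over all genes tested. In bulk RNA, a higher level in each cell cannot be told apart from a larger fraction of cells that carry the transcript.

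**Figure D1:**
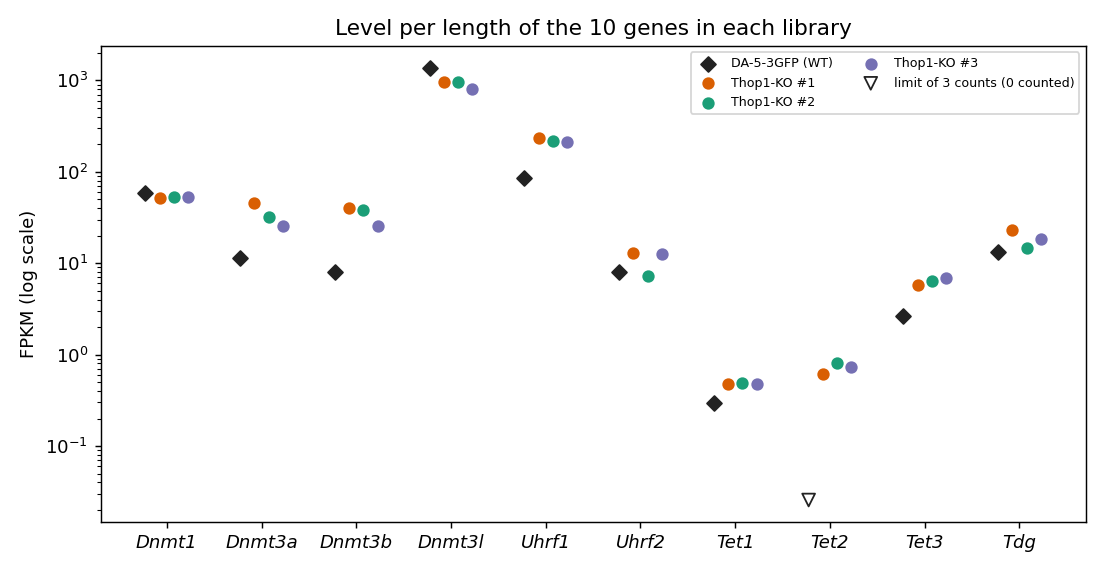
The level per length (FPKM, log axis) of the 10 genes is plotted in each library, with the control as a black diamond and the 3 subclones as coloured circles. The open triangle is the limit that 3 counts set for *Tet2* in the control, where 0 reads were counted, and *Dnmt3a*, *Dnmt3b*, *Uhrf1* and *Tet3* each show a control point below all 3 subclones.

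*Dnmt1*, the maintenance methyltransferase, differed little between the libraries. It was at 349 CPM in the control, and at 310, 321 and 324 CPM in #1, #2 and #3. The control lay just above the subclones, whose coefficient of variation was 2.24%, against a median of 23.4% over all genes tested. The log2 fold change was -0.13 (SE, the standard error, 0.21; adjusted p = 0.675 in the edgeR test), with a 95% interval from -0.63 to 0.36. *Dnmt1* (ENSRNOG00000039859) spans chromosome 8 from 21922515 to 21968495 (minus strand). These are positions of the deposited annotation, whose build is not given in the sources used here, as are those of the other genes.

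*Uhrf1*, which encodes the protein that brings DNMT1 to replicated DNA, was higher in all 3 subclones. Its level was 331 CPM in the control, 917 CPM in #1, 852 CPM in #2 and 837 CPM in #3. The subclones lay close together, at 869 ± 42.2 CPM (SD, n = 3), and every one of them was far above the control. The difference was 2.62-fold, a log2 fold change of 1.39 (SE 0.22, adjusted p = 0.0148 in the edgeR test). The call was lost when #3 was left out (adjusted p = 0.0667), although the log2 fold change was then 1.42. *Uhrf1* (ENSRNOG00000048411) spans chromosome 9 from 10738222 to 10757954 (minus strand). The ratio of *Uhrf1* to *Dnmt1* in FPKM was 1.45 in the control and 4.53, 4.07 and 3.97 in the subclones.

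*Uhrf2*, a paralog of *Uhrf1*, did not separate the genotypes. It had 29.4 CPM in the control, and 47.0, 26.4 and 46.3 CPM in #1, #2 and #3. Subclone #2 lay below the control and the other two above it, and the log2 fold change of 0.44 (SE 0.40) had an adjusted p of 0.463. In FPKM, *Uhrf1* made up 91.3% of the sum of both genes in the control and 94.4% to 96.8% in the subclones.

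Promoter sequences were available from RefSeq (GRCr8) for 9 of the 10 genes, all but *Dnmt3b*, as 16 windows of equal length around listed gene starts. They were searched on both strands for the letters TTTCGCGC, TTTGGCGC, TTTCCCGC and TTTGCCGC, the core that E2F factors are known to bind at genes of S phase. Such letters were in 2.14% of all 33469 promoter windows and in 2 of the 16 windows here, 1 of *Dnmt1* and 1 of the 3 of *Uhrf1*. Some of the 16 windows overlap each other, for *Uhrf1* and for *Tet3*. The letters hold CpG, and the matching windows of *Dnmt1* and *Uhrf1* held 17 and 35 CpG sites, beside a median of 7 over all windows. Windows of like CpG content were not compared, so these shares do not show an enrichment. The *Uhrf1* window held 2 matches, shown because *Uhrf1* and the S-phase genes are set side by side further on. RefSeq lists *Uhrf1* on the plus strand of chromosome 9 in GRCr8, whereas the deposited annotation has it on the minus strand at other positions. The matches are given with their flanks from the plus strand of GRCr8, the strand of the gene there, and with the match in capitals. The first begins 193 bases before the listed start (chr9:1222982-1223011) and the second 99 bases before it (chr9:1223076-1223105).
Uhrf1 upstream match: ccgctaagttcGCGGGAAActcgcgcggtc
Uhrf1 downstream match: cccgagtcgggTTTCGCGCgccctggcgtc
A match of letters does not show that a factor binds there.

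The de novo methyltransferase genes *Dnmt3a* and *Dnmt3b* both rose in *Thop1*-KO. *Dnmt3a* was at 49.5 CPM in the control, and at 195, 138 and 112 CPM in #1, #2 and #3. All subclones were at least 2.27-fold above the control, but they also differed among themselves, with #1 highest and #3 lowest. The mean of 148 ± 42.5 CPM (SD, n = 3) was 3.00-fold that of the control, a log2 fold change of 1.58 (SE 0.38, adjusted p = 0.0402 in the edgeR test). The call was lost after a correction for gene length (log2 fold change 1.24, adjusted p = 0.0911), without #3 (adjusted p = 0.067) and in limma fits of FPKM (adjusted p up to 0.131). *Dnmt3a* (ENSRNOG00000026649) spans chromosome 6 from 28235695 to 28340577 (plus strand).

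*Dnmt3b* had the larger fold change of the pair, a difference that was not tested. Its level was 26.6 CPM in the control, 134 CPM in #1, 128 CPM in #2 and 87.0 CPM in #3. The first 2 subclones were nearly equal and #3 was lower, at 3.27-fold the control. The mean of 116 ± 25.6 CPM (SD, n = 3) was 4.37-fold that of the control, with a log2 fold change of 2.13 (SE 0.36, adjusted p = 0.0176 in the edgeR test), and the call held with each subclone left out, at log2 fold changes of 2.02 to 2.30. It was lost in 2 of the 3 limma fits of FPKM (adjusted p up to 0.0774). *Dnmt3b* (ENSRNOG00000010625) spans chromosome 3 from 149131785 to 149208786 (plus strand). RefSeq lists a pseudogene of *Dnmt3b* that overlaps the gene itself, so how reads were split between them is uncertain, and pseudogenes of *Dnmt3a* and *Tdg* on other chromosomes are listed too.

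*Dnmt3l*, the gene of the cofactor without catalytic activity, went the other way. It was by far the most abundant of the 10 genes, at 1380 FPKM in the control and 955, 948 and 813 FPKM in #1, #2 and #3. In counts scaled to the library it was at 2360 CPM in the control, against 1620, 1620 and 1410 CPM. The control lay above all 3 subclones, 1.52-fold above their mean of 1550 ± 123 CPM (SD, n = 3). The log2 fold change of -0.61 (SE 0.19) did not pass the test (adjusted p = 0.0795 in the edgeR test), and it passed only when #2 was left out (adjusted p = 0.0125). *Dnmt3l* (ENSRNOG00000001212) spans chromosome 20 from 11344514 to 11359090 (minus strand).

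The makeup of the methyltransferase transcripts thus differed between the control and the subclones. In FPKM, *Dnmt1*, *Dnmt3a* and *Dnmt3b* summed to 77.7 in the control and to 138, 124 and 105 in #1, #2 and #3. *Dnmt1* made up 75.0% of this sum in the control, and 37.8%, 43.3% and 51.0% in the subclones. *Dnmt3a* and *Dnmt3b* together were at 19.4 FPKM in the control and at 85.6, 70.2 and 51.3 FPKM in the subclones. *Dnmt3a* was the higher of the pair in the control and in #1, and *Dnmt3b* the higher in #2 and #3, with ratios of *Dnmt3b* to *Dnmt3a* of 0.701 in the control and 0.894 to 1.21 in the subclones. For each FPKM of these 2 genes there were 71.2 FPKM of *Dnmt3l* in the control and 11.2 to 15.9 in the subclones. These sums and ratios are descriptions of single libraries, without a test.

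**Figure D2:**
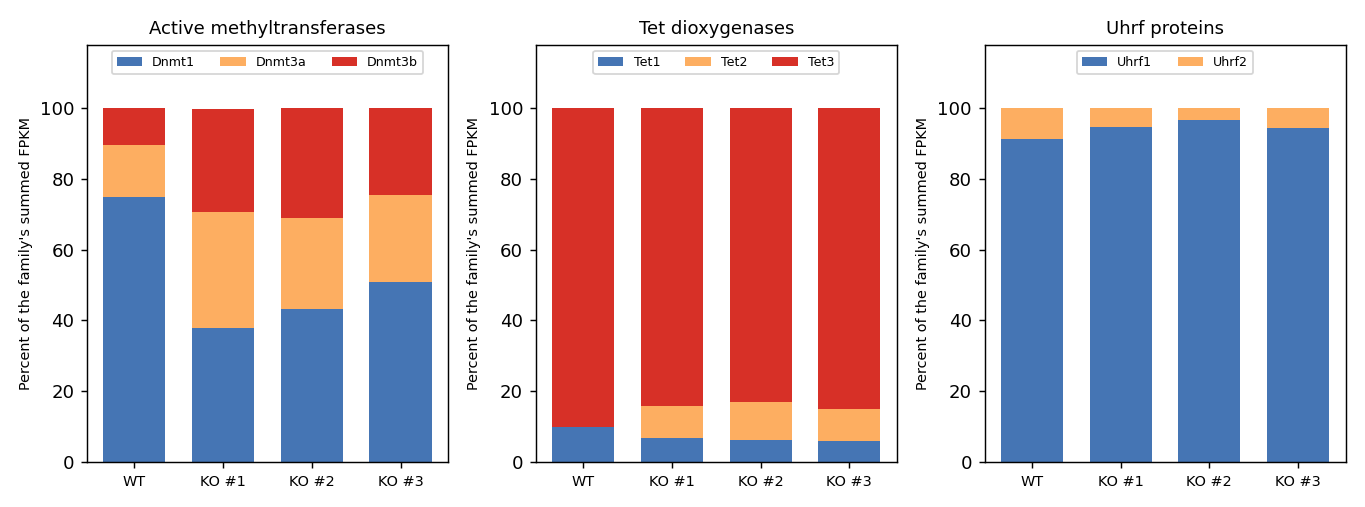
Each bar shows the percentage of a family's summed FPKM that each gene held in 1 library, for *Dnmt1*, *Dnmt3a* and *Dnmt3b* (left), the 3 *Tet* genes (middle) and the 2 *Uhrf* genes (right). *Dnmt1* fills 75.0% of the left bar of the control and 37.8% to 51.0% in the subclones, and *Tet3* fills 83.1% to 90.0% of every bar in the middle.

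Of the dioxygenase genes, *Tet3* was the most abundant and *Tet2* differed most. *Tet2* had 0 counts in the control, and 81, 113 and 106 counts in #1, #2 and #3. In CPM this was 0 against 4.83, 6.39 and 5.90. The count of 0 was given a floor of 3 counts, or 0.202 CPM, while its exact Poisson interval reached 0.248 CPM. The mean of the subclones, 5.71 ± 0.799 CPM (SD, n = 3), was 28.3-fold that floor. *Tet2* was called higher (adjusted p = 0.00705 in the edgeR test). The call was lost in a limma fit of FPKM without a filter (adjusted p = 0.0632). The level stayed low in the subclones too, at 0.618 to 0.813 FPKM. Of the 8656 genes with at least 81 counts in every subclone, 4 had 0 counts in the control, *Tet2* included. The limit of 81 was the lowest count of *Tet2* in the subclones, so *Tet2* met it by construction. *Tet2* (ENSRNOG00000023579) spans chromosome 2 from 238720835 to 238803024 (minus strand) with no overlapping gene in the table. The counts do not show which part of the gene the reads fell on.

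*Tet3* was at 16.2 CPM in the control, and at 35.6, 39.3 and 43.0 CPM in #1, #2 and #3. The subclones lay within a narrow range well above the control. The mean of 39.3 ± 3.68 CPM (SD, n = 3) was 2.42-fold that of the control, a log2 fold change of 1.28 (SE 0.30, adjusted p = 0.0393 in the edgeR test). The call was lost after a correction for gene length (log2 fold change 0.87, adjusted p = 0.0903), without #3 (adjusted p = 0.19) and in limma fits of FPKM (adjusted p up to 0.0929). *Tet3* (ENSRNOG00000011387) spans chromosome 4 from 115066309 to 115157263 (minus strand).

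*Tet1*, which mouse ESCs are known to express strongly, was low in these rat libraries. It had 27 counts in the control, and 49, 53 and 54 counts in the subclones. This is 1.82 CPM against 2.92, 3.00 and 3.01 CPM, and the exact Poisson intervals of the control and of each subclone overlapped. The log2 fold change of 0.71 (SE 0.51, adjusted p = 0.360 in the edgeR test) was not resolved at this depth, and its 95% interval ran from -0.51 to 1.93. Per length, *Tet1* was at 0.294 FPKM in the control and 0.475 to 0.485 FPKM in the subclones. *Tet1* (ENSRNOG00000000277) spans chromosome 20 from 27366213 to 27437427 (plus strand).

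In the sum of the 3 *Tet* genes, which was 2.93 FPKM in the control and 6.91, 7.69 and 8.12 FPKM in #1, #2 and #3, *Tet3* held 90.0% in the control and 84.2%, 83.1% and 85% in the subclones. *Tet2* held 8.94% to 10.6% in the subclones and was the rarest of them in the control, whereas *Tet1* was the rarest in every subclone. The summed FPKM of *Dnmt1*, *Dnmt3a* and *Dnmt3b* was 26.5 times that of the *Tet* genes in the control, and 19.9, 16.1 and 12.9 times in the subclones. When only *Dnmt3a* and *Dnmt3b* were set against the *Tet* genes, the ratio was 6.62 in the control and 12.4, 9.13 and 6.32 in the subclones, so that the control lay inside their range.

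*Tdg*, the glycosylase gene, had 47.6 CPM in the control, and 81.2, 51.6 and 66.6 CPM in #1, #2 and #3. The control was lowest, but #2 was close to it. The log2 fold change of 0.48 (SE 0.33, adjusted p = 0.331 in the edgeR test) did not pass, with a 95% interval from -0.30 to 1.26. *Tdg* (ENSRNOG00000027124) spans chromosome 7 from 27193998 to 27214236 (minus strand), and *Uhrf2* (ENSRNOG00000011308) chromosome 1 from 248228496 to 248291978 (plus strand).

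Ordered by FPKM, *Dnmt3l*, *Uhrf1* and *Dnmt1* led in this order in every library, and *Tet3* was followed only by *Tet1* and *Tet2*. *Uhrf1* and *Dnmt1* lay closer to each other in the control, at 84.7 and 58.3 FPKM, than in the subclones, at 222 ± 12.6 and 53.0 ± 0.802 FPKM (SD, n = 3). Between these and *Tet3*, the order was *Tdg*, *Dnmt3a*, *Uhrf2*, *Dnmt3b* in the control, where they spanned 13.3 down to 7.99 FPKM. In every subclone *Dnmt3a* and *Dnmt3b* both stood above *Tdg* and *Uhrf2*. Their means of 34.1 ± 10.1 FPKM for *Dnmt3a* and 34.9 ± 7.95 FPKM for *Dnmt3b* (SD, n = 3) differed by less than the spread between subclones, and *Tdg*, at 18.6 ± 4.21 FPKM, and *Uhrf2* had ranges that did not overlap but lay close, *Tdg* starting at 14.5 FPKM and *Uhrf2* ending at 13 FPKM. *Tet2*, at 0.724 ± 0.0987 FPKM, was above *Tet1*, at 0.480 ± 0.00483 FPKM, in each of the 3 subclones.

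The subclones were not equal to each other. By exact Poisson intervals of the counts, which cover counting error only, each pair of subclones was apart for *Dnmt3a* and *Tdg*, and no pair was apart for *Dnmt1*, *Tet1* and *Tet2*. For *Dnmt3b* and *Dnmt3l* it was #3 that lay below the other two, for *Uhrf1* it was #1 that lay above, and for *Uhrf2* it was #2 that lay below. *Tet3* was apart between #1 and #3 only. *Dnmt3a* was highest in #1 and lowest in #3 while *Tet3* was highest in #3 and lowest in #1, so the called genes did not share 1 order of the subclones.

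The genes closest to each called gene in profile were sought among all genes tested, by the root mean square distance of log2 CPM over the 4 libraries after each profile was centred on its mean. With 4 libraries, such a likeness is a description. Nearest to *Uhrf1* were *Chd7*, which encodes a chromatin remodeller (10.8 CPM in the control, 27.7 to 29.2 CPM in the subclones, distance 0.0269), and *Crabp1*, which encodes a retinoic acid binding protein (distance 0.0334). Nearest to *Tet3* were *Kat6a*, which encodes a histone acetyltransferase (7.13 CPM in the control, 15.7 to 19.8 CPM in the subclones, distance 0.0226), and *Rnft1* (distance 0.0262). Nearest to *Dnmt3b* were the locus AABR07054367.1 (distance 0.0311) and *Serac1* (distance 0.0656). *Dnmt3a* had no neighbour as close, the nearest being a 7SK RNA locus with under 2 CPM (distance 0.0796) and *Afap1* (distance 0.0956). For *Tet2* they were *Moap1*, also at 0 in the control and at 3.88 to 4.19 CPM in the subclones (distance 0.244), and *LOC103689975* (distance 0.251).

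Other genes of the methylation pathway were counted in lists, of which few members were called by the edgeR test. Among 9 partners that guide or assist the methyltransferases, *Zfp57* was higher and *Pcna* lower, 1 of 9 (11.1%) each way, near the 8.62% and 5.17% of all genes tested. *Zfp57*, whose zinc finger protein guards methylation at imprinted regions, was at 4.04 CPM in the control and at 35.1, 30.8 and 24.3 CPM in #1, #2 and #3 (log2 fold change 2.89, SE 0.41, adjusted p = 0.0112 in the edgeR test). *Pcna*, which encodes the replication clamp, was at 354 CPM in the control and at 124, 162 and 114 CPM in the subclones (log2 fold change -1.41, SE 0.26, adjusted p = 0.0210), a call that was lost without #3 (adjusted p = 0.0872) and in the limma fits of FPKM (adjusted p up to 0.0867). *Hells*, which encodes a remodeller, had the largest fitted difference of the list but only 0 counts in the control and 18, 4 and 8 in the subclones, and was not called (adjusted p = 0.134). The median log2 fold change of the list was 0.50. In edgeR, 5 of the 9 had an unadjusted p under 0.05, beside 2867 higher and 2243 lower of all 15028 genes tested. DESeq2 called *Usp7* higher as well.

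Of factors known to hold methylation back, 5 listed features were tested, and none was called by the edgeR test. Of these 5, 2 had an unadjusted p under 0.05, beside 2867 higher and 2243 lower of all 15028 genes tested. The largest difference was that of *Dppa3*, whose protein keeps UHRF1 from chromatin, at 245 CPM in the control and at 627, 578 and 395 CPM in the subclones (log2 fold change 1.12, SE 0.32, adjusted p = 0.0623 in the edgeR test), while a second locus under the same symbol, at 7.54 CPM, had a log2 fold change of -0.61. *Dppa3* was called by DESeq2 (adjusted p = 0.0131), after the length correction (0.0273), with library size as the only scaling (0.0487), without a filter on low counts (0.0495) and without #2 (0.00654). Reads may be split between the 2 loci. Of 6 tested partners of the TET proteins and 2-oxoglutarate enzymes, none was called by the edgeR test either, with 2 at an unadjusted p under 0.05. *Idh2*, which encodes a mitochondrial isocitrate dehydrogenase, was at 327 CPM in the control and at 1460, 530 and 1190 CPM in the subclones (log2 fold change 1.70, adjusted p = 0.0862). It was called by DESeq2 (adjusted p = 0.00256) and without #2, the subclone in which it was lowest (log2 fold change 2.02, adjusted p = 2.18e-05).

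Of 7 methyl-CpG reader genes tested, *Zbtb4* was higher, at 0.471 CPM in the control and 3.70, 6.34 and 3.39 CPM in #1, #2 and #3 (log2 fold change 3.23, SE 0.72, adjusted p = 0.0343 in the edgeR test). That value rests on 7 counts in the control, and the call was lost without #3 (adjusted p = 0.0859) and in the limma fits (adjusted p up to 0.145). Of 9 base excision repair genes, 1 was higher: *Smug1*, which encodes another glycosylase, went from 23.6 CPM to 83.5, 75.9 and 80.8 CPM (log2 fold change 1.77, SE 0.28, adjusted p = 0.0144, and 0.0686 without #3). The shares called higher in these 2 lists were 14.3% and 11.1%, close to the 8.62% of all genes tested. In edgeR, 4 of the 7 readers and 3 of the 9 repair genes had an unadjusted p under 0.05. Over all 15028 genes tested, 2867 higher and 2243 lower had such a p. DESeq2 called *Neil2*, another repair gene, higher as well.

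Germline genes whose silencing in ESCs is known to need DNA methylation were read as well. Of 9 tested, none was higher and 2 were lower, *Dazl* and *Stk31*, where 5.17% of all genes tested were lower. *Dazl*, which encodes an RNA-binding protein of germ cells, had 47 counts in the control and 1, 8 and 4 counts in #1, #2 and #3 (log2 fold change -3.64, SE 0.90, adjusted p = 0.0433 in the edgeR test). *Stk31* had 128 counts in the control, and 30, 15 and 39 in the subclones (log2 fold change -2.42, SE 0.55, adjusted p = 0.0360). Both calls were lost without #3 (adjusted p = 0.126 for *Dazl* and 0.0816 for *Stk31*) and in the limma fits on log2(FPKM + 1) (0.0549 and 0.0572) and log2(FPKM + 0.1) (0.0738 and 0.0952). The control lay above all 3 subclones for 6 of the 9 and inside their range for the other 3, beside 37.6% above and 24.3% inside over all genes tested, and the median log2 fold change was -0.62. No DNA methylation was measured in these libraries.

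**Figure D3:**
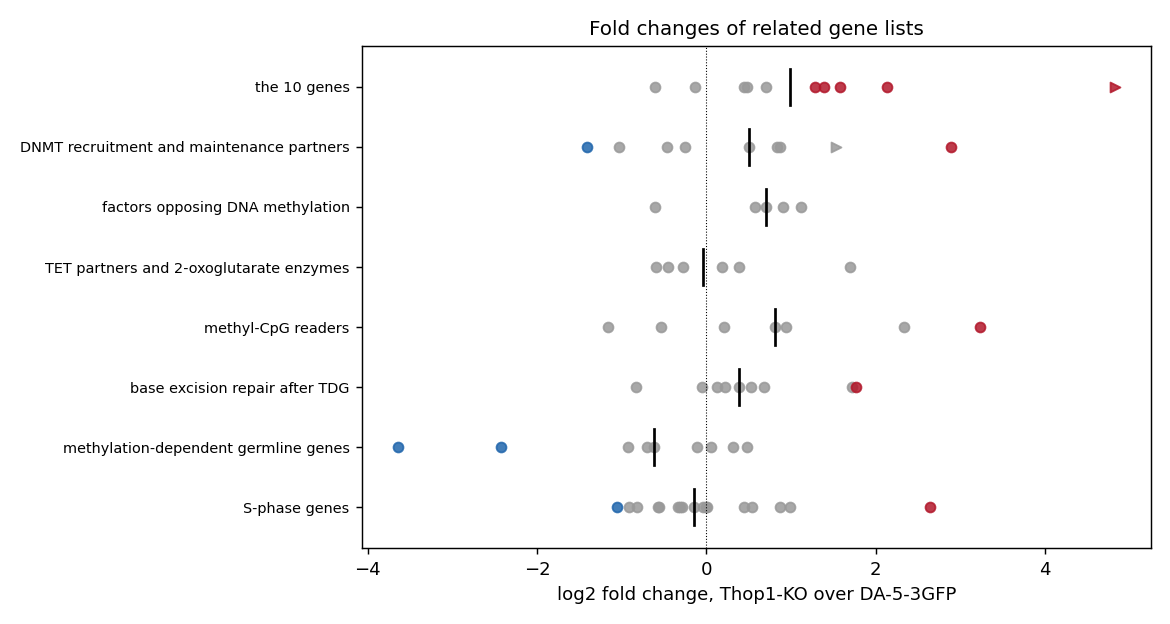
The log2 fold change of *Thop1*-KO over DA-5-3GFP is plotted for each tested gene of the 10 and of 7 related lists, with genes called higher in red, called lower in blue and not called in grey. Black bars are medians, 0.99 for the 10 genes, -0.62 for the germline genes and -0.14 for the S-phase genes. Arrowheads are log2 ratios to a floor of 3 counts, for genes with 0 counts in the control, and are not limits of an interval.

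Since *Uhrf1* and *Dnmt1* are known to follow S phase, 17 genes listed as S-phase genes were read beside them. The list also holds *Mki67* and *Top2a*, which mark dividing cells more broadly and not S phase alone. *Rrm2*, which encodes a subunit of ribonucleotide reductase, was higher, at 62.1 CPM in the control and 485, 364 and 316 CPM in #1, #2 and #3 (log2 fold change 2.64, SE 0.35, adjusted p = 0.00926 in the edgeR test). *Top2a*, which encodes a topoisomerase, was lower, at 172 CPM in the control and 79.9, 72.2 and 97.8 CPM in the subclones (log2 fold change -1.05, SE 0.26, adjusted p = 0.0420), a call that was lost without #1 (adjusted p = 0.0588), without #3 (0.117) and in the limma fits (0.0756 to 0.102). These are 5.88% of the list each way, beside 8.62% higher and 5.17% lower over all genes tested. *Pcna*, the gene of the replication clamp, was counted with the methyltransferase partners above and is not in this list. It was called lower, at 354 CPM in the control and 124, 162 and 114 CPM in the subclones, with the limits given there. By DESeq2, 3 of the 17 were higher (*Cdc6*, *Mcm2* and *Rrm2*) and 1 lower, beside 1987 higher and 1019 lower of 13973 genes. In edgeR, 6 of the 17 had an unadjusted p under 0.05, beside 2867 higher and 2243 lower of all 15028 genes tested. The control lay below all subclones for 5 of the 17 genes, above for 7 and inside for 5, beside 38.1%, 37.6% and 24.3% over all genes tested, and the median log2 fold change was -0.14. Summed over the list, the level was 3650 CPM in the control and 4560, 4330 and 3980 CPM in the subclones, and the part of these differences in the result for *Uhrf1* was not tested.

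Markers of other cells also differed in level between the libraries. Of 6 tested fibroblast feeder markers, 3 had an unadjusted p under 0.05 in edgeR, beside 2867 higher and 2243 lower of all 15028 genes tested. None of the 6 was called by the edgeR test on all libraries, and DESeq2 called *Col1a1*. *Col1a1* was also called higher in edgeR without #1 and without #2. The control lay below every subclone in all 6, beside 38.1% of all genes tested. Their summed CPM was 201 in the control and 327, 654 and 418 in #1, #2 and #3, most of it *Col1a1*. *Col3a1* had the largest fold change, at 6.39 CPM in the control and 16.2, 80.0 and 36.9 CPM in the subclones, and was called without #1 (adjusted p = 0.0084) and without #2 (adjusted p = 0.00454). *Thy1*, *Dcn* and *Lum* were at 0 counts in every library. Subclone #2 had the highest sum of these feeder markers. Of 6 primitive endoderm markers tested, none was called by the edgeR test on all libraries or by DESeq2. In edgeR 4 had an unadjusted p under 0.05, and the median log2 fold change was 1.72. *Lama1* was called higher when #2 was left out. The control lay below every subclone for *Gata6*, *Sox17*, *Pdgfra*, *Dab2* and *Lama1*, and above for *Gata4*. Their sum was 851 CPM against 1220, 1370 and 1780 CPM, nearly all of it *Lama1*. *Gata6* was at 0.606 CPM in the control and 3.76, 1.36 and 0.890 CPM in the subclones, and *Sox17* at 0.673 CPM and 2.03, 2.09 and 2.62 CPM, while *Gata4* was at 1.14 CPM and at most 0.179 CPM. Of 3 neural and mesoderm markers tested, 1 was lower, *Nes*, with 126 counts in the control against 6, 13 and 3, where 5.17% of all genes tested were lower. With all libraries in the fit, *Gsc* and *Eomes* were not called. *Gsc* was at 4.98 CPM in the control and 18.4, 5.88 and 19.6 CPM in the subclones, and was called higher without #2. *Eomes* had a log2 fold change of 0.26, which was also the median of the list. *Pax6* and *Mixl1* were at 0 in every library. Of 11 ESC markers, 3 were higher (*Esrrb*, *Tfcp2l1* and *Dppa4*) and *Utf1* was lower, beside 8.62% higher and 5.17% lower over all genes tested, with a summed level of 8070 CPM in the control and 6670 to 8140 CPM in the subclones. The part of any of these cells in the values of the methylation genes was not tested.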

How the data were processed

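Raw counts per gene and FPKM values of the 4 libraries were deposited by the authors, with gene lengths and coordinates. Per the submitters' processing notes, HISAT2 2.0.5 and featureCounts 1.5.0-p3 were used. The genome build and whether counting used strand are not given in the sources used here. The authors' FPKM were used as deposited for levels between genes. Libraries were grouped by their genotype labels.

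Counts were tested in edgeR 4.0.16 (R 4.3.3) with filterByExpr (minimum count 10), TMM factors, the quasi-likelihood test and Benjamini-Hochberg adjustment over 15028 genes. The study's methods name DESeq2, which was run as an alternative (1.42.0), as was limma 3.58.1 fitted to log2 FPKM with 1 or 0.1 added. A loess on gene length used a span of 0.3. A count of 0 was given a floor of 3 counts, and intervals of counts were exact Poisson at 95%, covering counting error only. The fit was also run on simulated counts, whose outcome is not reported here, so its power and its rate of false calls are not given.

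The 10 genes and all lists were chosen with earlier results of these data known. Named are all 10 genes, *Thop1*, the genes of each list that were called or had the largest fold change, and the 2 annotated genes nearest in profile to each called gene. A gene named by this rule, with its list, is not reported here. The other markers named were chosen after their values were seen. Promoters came from RefSeq (GRCr8). Python 3.11.15 was used for tables and figures, with pandas 2.3.3, scipy 1.17.1 and matplotlib 3.10.9. Chi-square tests of counts found no library deposited under more than 1 label.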

Additional observations from a re-analysis of the deposited data

How the results depend on the processing

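No paired analysis was possible because the control has 1 library and no replicate number. Of the 10 genes, 5 were called higher, and 5 were also called under other scalings, without a filter and by DESeq2. The number was 3 after a correction for gene length (*Dnmt3a* and *Tet3* lost), 2 to 5 with 1 subclone left out (2 without #3: *Dnmt3b* and *Tet2*), 2 by limma on log2(FPKM + 1), 1 by limma on log2(FPKM + 0.1) and 1 by limma on log2(FPKM + 1) without a filter, *Uhrf1* both times. *Tet2* could not be tested by the filtered limma fits or with at least 10 counts in every library. No direction reversed for the 10 genes, for *Thop1* or for the called or largest genes of the lists. Directions of the other genes named were not compared across these alternatives. Of the list genes called, *Pcna*, *Zbtb4*, *Smug1*, *Dazl*, *Stk31*, *Top2a* and *Dppa4* lost their call without #3. Over all genes, 1295 were called higher and 777 lower. With 1 subclone left out, 354 (without #3) to 3096 (without #2) were higher and 103 to 2476 were lower. DESeq2 called 1987 higher, limma called 664 higher on log2(FPKM + 1), 796 on log2(FPKM + 0.1) and 332 without a filter, and 339 lower on log2(FPKM + 0.1). The share of calls that were higher was 62.5%, and 38.1% by limma without a filter, 53.1% after the length correction, 77.5% without #3 and 55.6% without #2. The length correction moved the median log2 fold change over all genes from 0.0555 to -0.0856. The causes were not tested. Genes with few counts, *Tet1* above all, limit what the depth can resolve.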

Other observations

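Besides *Tet2*, 3 loci had 0 counts in the control and at least 81 counts in each subclone. They were *Hyal1*, which encodes a hyaluronidase, with 296, 133 and 164 counts in #1, #2 and #3, *Tbc1d16*, with 188, 126 and 114 counts, and 1 locus without an annotated name, with 149, 98 and 102 counts. They were chosen after their values were seen.

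*Mat2a*, which encodes the enzyme that makes S-adenosylmethionine, differed more among the subclones than between the genotypes. It was at 205 CPM in the control, 16.3 CPM in #1, 202 CPM in #2 and 47.6 CPM in #3, and was not called (adjusted p = 0.448 in the edgeR test). It was also chosen after its values were seen.

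The promoter windows of the 9 genes matched in RefSeq differed in CpG content. The window of *Tet2* held 39 CpG sites, more than 96.2% of all windows of the same length, and 1 of the 3 windows of *Uhrf1* held 35, whereas the median over all windows was 7. *Tet1* had windows with 3, 16 and 4 sites, and *Tet3* had windows with 3, 3, 23 and 15.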
